A study of Rattus norvegicus with 6 samples.

Results

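miR-106b, miR-93 and miR-25 are cut from 3 neighbouring hairpins of 1 primary transcript, and each hairpin can release a mature miRNA from its 5p and its 3p arm. Members were taken by name, as every row of the deposited table for these hairpins, which gave 6 arms of the 764 rat miRNA rows listed, and all 6 arms had reads in every library. Small RNA was sequenced from tissue labelled testicle of male Sprague Dawley rats, with 3 libraries from HO-1 knockout and 3 from wild type animals. HO-1 is heme oxygenase 1, a stress-inducible enzyme that breaks down heme. Every animal of both genotypes had a left testis twisted by 720° for 2 h and returned to place for 3 days, so genotype was the only contrast, and sham or uninjured tissue was not analysed here. The labels give neither ages nor the knockout allele. They do not say that libraries are from separate animals either, so a p-value reflects the spread between these libraries alone, which may be technical. This assay read no messenger RNA, so whether the deleted gene was absent could not be checked.

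The hairpins lie in an intron of Mcm7, which codes for a subunit of the helicase that opens DNA for replication, and the cluster is known for high levels in proliferating cells. It is a paralog of the miR-17-92 cluster and of the X-linked cluster that holds miR-20b and miR-363. The 5p arms of miR-106b and miR-93 share their seed with miR-17-5p, and the 3p arm of miR-25 shares its seed with miR-92a-3p. The seed is the stretch that pairs with target messenger RNAs, so miRNAs with 1 seed have overlapping targets. Known targets of the first family include the cell cycle inhibitor Cdkn1a, and both families are known to target Bcl2l11, which promotes apoptosis.

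The 6 mature sequences are shown first because the comparisons below turn on which arms share a seed. They come from RefSeq on the build GRCr8, where all 6 names matched, and capitals mark the seed, bases 2 to 8.
rno-miR-106b-5p: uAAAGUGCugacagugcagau
rno-miR-106b-3p: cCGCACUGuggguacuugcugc
rno-miR-93-5p: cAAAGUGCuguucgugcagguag
rno-miR-93-3p: aCUGCUGAgcuagcacuucccga
rno-miR-25-5p: aGGCGGAGacacgggcaauugc
rno-miR-25-3p: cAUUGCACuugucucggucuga

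The seed mates from other loci follow, as the members against which the cluster was compared within each library. A seed could be read for 690 of the 764 listed rows, those with a sequence in RefSeq. Among these, 5 rows carried the seed of each of these families. The other 3 arms of the cluster shared theirs with no other row that had a sequence. Below, reads with a seed are the reads of these rows.
miR-17-5p: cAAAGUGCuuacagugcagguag
miR-20a-5p: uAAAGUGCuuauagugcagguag
miR-20b-5p: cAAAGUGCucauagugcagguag
miR-92a-3p: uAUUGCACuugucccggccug
miR-92b-3p: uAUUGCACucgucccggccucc
miR-363-3p: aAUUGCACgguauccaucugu
miR-32-5p: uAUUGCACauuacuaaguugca

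Over the whole mature sequence, miR-93-5p stood 3 edits (substitutions, insertions or deletions) from miR-17-5p and miR-20b-5p. They were its nearest miRNAs among the listed rows with a sequence. miR-25-3p stood 4 edits from miR-92a-3p, and miR-106b-5p stood 5 edits from miR-17-5p and miR-20a-5p. The authors' rule for reads that match several miRNAs was not given in the sources used here.

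The hairpins of miR-93 and miR-25 show where the arms sit, with both mature arms in capitals. In GRCr8 they lie on the minus strand at chr12:22156844-22156930 and chr12:22156641-22156724, and the arms of miR-106b at chr12:22157103-22157123 (5p) and chr12:22157062-22157083 (3p). Read along the transcript, the order is miR-106b, miR-93, miR-25, within 494 bases that lie inside the annotated span of Mcm7 on its strand.
Mir93: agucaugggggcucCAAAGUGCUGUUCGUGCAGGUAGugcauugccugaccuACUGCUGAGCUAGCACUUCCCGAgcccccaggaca
Mir25: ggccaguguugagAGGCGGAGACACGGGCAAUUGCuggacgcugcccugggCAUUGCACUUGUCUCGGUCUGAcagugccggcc

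Values are reads per 1000000 assigned reads (RPM), at 8300536 to 10042673 reads per library. The libraries went against their label before any comparison. miR-122-5p, the defining miRNA of hepatocytes, held 32.7% to 36.6% of the reads in wild type libraries and 40.2% to 46.4% in knockout libraries. The 20 germ cell and testis markers summed to only 39.8 to 55.8 RPM in wild type libraries and 28.9 to 33.6 RPM in knockout libraries, and 5 of them, miR-202-3p, miR-465-5p, miR-878, miR-880-3p and miR-883-3p, were at 0 in every library. Which tissue the values below describe is therefore not settled. In bulk RNA, fewer cells of a type and less RNA per cell cannot be told apart.

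miR-25-3p was the most abundant arm, at rank 47 of the 570 miRNAs that had any read. The values of rno-miR-25-3p in wild type libraries 1 to 3 were 1042, 839 and 920 RPM, and those in knockout libraries 1 to 3 were 803, 932 and 853 RPM. The groups overlapped. rno-miR-93-5p followed at rank 82, with 339, 298 and 318 RPM in wild type libraries and 188, 263 and 289 RPM in knockout libraries. Every knockout library lay below every wild type library, and knockout library 1 was the lowest.

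The arms of miR-106b were close to each other. rno-miR-106b-3p stood at 86.8, 66.3 and 61.6 RPM in wild type libraries and 59.0, 75.8 and 66.5 RPM in knockout libraries. rno-miR-106b-5p stood at 73.6, 68.5 and 55.6 RPM in wild type libraries and 46.1, 58.7 and 49.5 RPM in knockout libraries. For both arms the genotypes overlapped, and wild type library 1 was the highest of all 6.

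The minor arms were rare. rno-miR-93-3p stood at 3.29, 3.61 and 3.27 RPM in wild type libraries and 3.01, 3.47 and 3.78 RPM in knockout libraries, from 25 to 34 reads per library. rno-miR-25-5p stood at 2.79, 2.30 and 1.90 RPM in wild type libraries and 1.33, 2.24 and 2.11 RPM in knockout libraries, from 11 to 28 reads. At such counts their precision was limited by counting as well as by the spread between libraries.

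The order of levels was miR-25-3p, miR-93-5p, miR-106b-3p, miR-106b-5p, miR-93-3p and miR-25-5p. Of the 5 neighbouring steps in this order, 4 had the same sign in all 6 libraries. The exception was miR-106b-3p over miR-106b-5p, which held in 5 of 6 libraries with a ratio of 0.968 to 1.34. By the arm with the higher mean in each hairpin, reads thus rose along the transcript. miR-25-3p stood at 2.81 to 4.27 times miR-93-5p. In turn, miR-93-5p stood at 3.19 to 5.16 times miR-106b-3p and 4.08 to 5.83 times miR-106b-5p. Ligation-based libraries capture different sequences with different efficiency, which was not measured here, so ratios between miRNAs are ratios of reads.

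**Figure D1:**
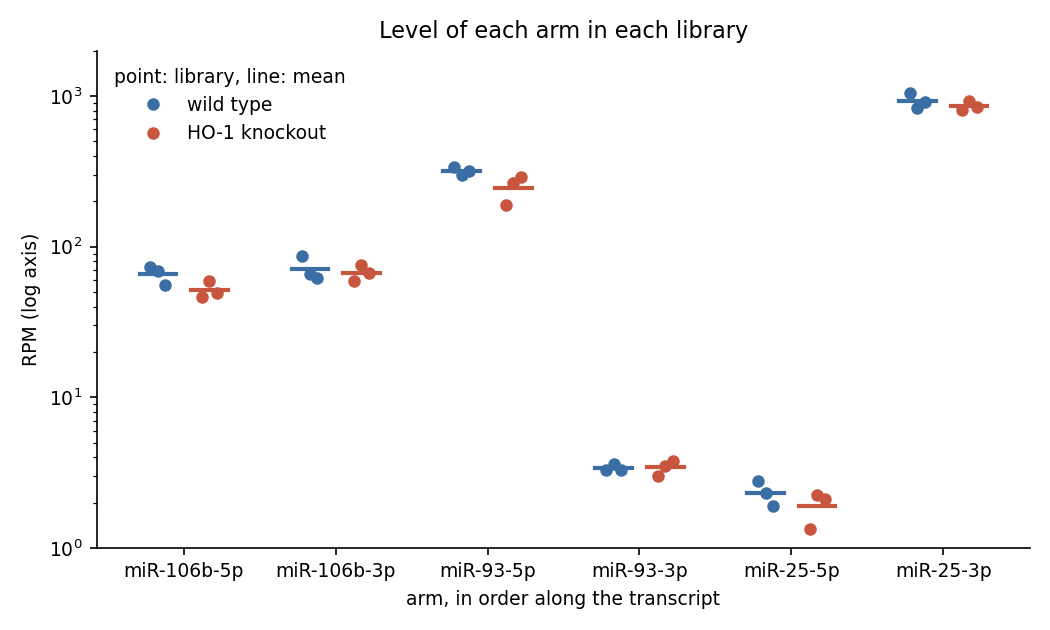
RPM (log axis) of each arm, in order along the transcript, with 1 point per library and a line at the mean of the 3 libraries of each genotype. miR-25-3p lies at 803 to 1042 RPM, miR-93-5p is the only arm whose genotypes do not overlap, and the arms of miR-106b lie side by side.

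No arm of the cluster passed the test between genotypes. In limma's test on log2(RPM + 1), 0 of 6 arms had a Benjamini-Hochberg adjusted p below 0.05, beside 6.32% of all 570 rows tested, and 0 of 6 had an unadjusted p below 0.05, beside 110 of the 570 rows. An unadjusted p below 0.05 was reached by 1 of 6 arms in each of 3 alternative fits, by miR-93-5p with a pseudocount of 0.1 and without knockout library 3, and by miR-106b-5p without wild type library 3. With so few members, 0 calls is what a share near that background would also give. edgeR's quasi-likelihood test on recovered reads called 0 of 6, beside 10.7% of all rows, and DESeq2 called 0 of 6, beside 12.6%. The median log2 change of the 6 arms was -0.16, beside -0.12 for all rows tested. For the 4 arms of at least 10 RPM it was -0.23, beside -0.29 for the 218 rows of that abundance.

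miR-93-5p, from 318 ± 20 RPM to 247 ± 52 RPM (SD, n = 3), had a log2 change of -0.39 (SE 0.17, 95% interval -0.78 to 0.01, limma adjusted p = 0.26). It was 1 of 6 arms whose knockout libraries all lay below the wild type, which held for 21.6% of all rows. Without knockout library 1, its log2 change was -0.21. miR-106b-5p, from 65.9 ± 9.3 to 51.5 ± 6.5 RPM, had a log2 change of -0.35 (95% interval -0.74 to 0.05, limma adjusted p = 0.30).

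miR-25-3p, from 934 ± 102 to 863 ± 65 RPM, had a log2 change of -0.11, and its interval of -0.38 to 0.16 was the narrowest of the 6. The change was -0.0297 without wild type library 1 and -0.19 without wild type library 2. With all 6 libraries and on this scale, the 95% interval ran from 0.77-fold to 1.12-fold. It depends on the scaling, and in log2 it was -0.11 to 0.33 with TMM scaling (described below). miR-106b-3p, at 71.6 ± 13.4 and 67.1 ± 8.4 RPM, had a log2 change of -0.08 (95% interval -0.50 to 0.33). The rare arms had log2 changes of 0.01 (miR-93-3p, 95% interval -0.51 to 0.52) and -0.21 (miR-25-5p, 95% interval -0.76 to 0.34), so changes within those bounds were not excluded. The change of miR-25-5p was -0.0605 without knockout library 1 and -0.30 without wild type library 3.

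These changes are relative to each library's total, of which miR-122-5p took a larger part in knockout libraries. TMM scaling, which centres most miRNAs on no change, moved the median log2 change of the 218 rows from -0.29 to -0.07. Under it miR-25-3p stood at 0.11 and miR-106b-3p at 0.14, on the other side of 0, while miR-93-5p and miR-106b-5p stood at -0.16 and -0.13. The summed cluster showed the same dependence. It held 1547, 1278 and 1361 RPM in wild type libraries and 1101, 1335 and 1263 RPM in knockout libraries, a log2 difference of -0.18 (exact two-sided permutation p = 0.2) that ranged from -0.0989 to -0.24 with 1 library left out (exact p 0.2 to 0.4). Per 1000000 reads other than miR-122-5p, it held 2149 ± 146 in wild type libraries and 2176 ± 107 in knockout libraries (SD, n = 3), and the log2 difference was 0.02 (exact p = 0.9). The direction of the cluster as a whole therefore was not established.

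**Figure D2:**
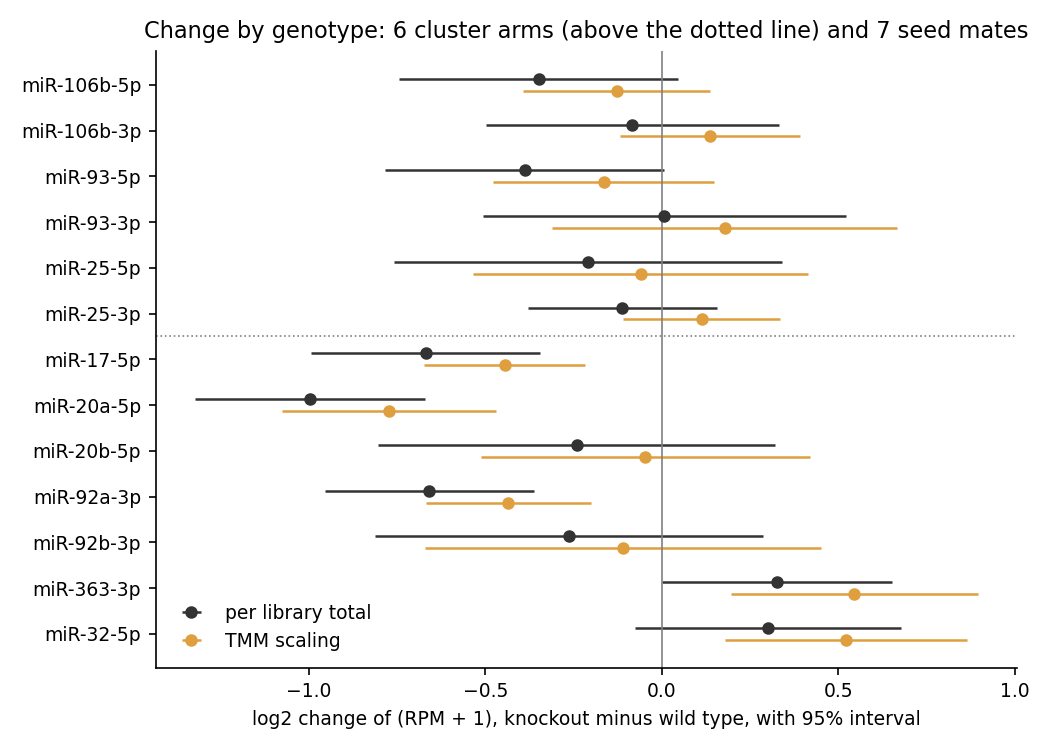
Log2 change of RPM + 1 between genotypes (knockout minus wild type) with limma's 95% interval, per library total and after TMM scaling, for the 6 cluster arms and 7 seed mates. The intervals of all 6 cluster arms include 0 under both scalings, while those of miR-17-5p, miR-20a-5p and miR-92a-3p lie below it under both.

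Paralogs that carry these seeds were measured in the same libraries. Of 21 tested arms of the paralogous clusters and seed mates, 3 fell, 0 rose and 18 did not pass, beside 5.61% of all rows that fell and 0.702% that rose. The 3 were miR-20a-5p, miR-17-5p and miR-92a-3p, all produced by the miR-17-92 cluster, and mature miR-17-5p and miR-92a-3p each have a further locus in the RefSeq table. Other arms of miR-17-92 did not pass. Mean RPM in wild type and knockout was 320 and 253 for miR-19b-3p (limma adjusted p = 0.34) and 68.1 and 79.3 for miR-19a-3p (limma adjusted p = 0.57). For miR-18a-5p it was 4.78 and 4.94 (limma adjusted p = 0.94). miR-20a-5p fell from 647, 630 and 665 RPM in wild type to 267, 338 and 377 RPM in knockout libraries, with a log2 change of -0.997 (95% interval -1.32 to -0.67, limma adjusted p = 0.015). miR-92a-3p stood at 3056, 3078 and 2682 RPM and at 1583, 2128 and 1903 RPM (log2 change -0.66, limma adjusted p = 0.025), and miR-17-5p at 574, 464 and 493 RPM and at 273, 343 and 348 RPM (log2 change -0.67, limma adjusted p = 0.031). In each of the 3, the genotypes did not overlap. The call of miR-20a-5p held with any single library left out. That of miR-17-5p was lost without each of the 6 libraries in turn (limma adjusted p between 0.062 and 0.097), with upper-quartile scaling (0.070) and with the replicate number as a block (0.087). For miR-92a-3p, leaving out knockout library 1 or 3, or library 1 or 2 of the wild type, ended the call (adjusted p 0.066 to 0.097 in limma), and each of these 4 fits left 1 of 21 arms called.

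The rarer seed mates did not pass limma's test on log2(RPM + 1). miR-32-5p stood at 66.6 ± 10.6 RPM in wild type libraries and 81.8 ± 6.4 RPM in knockout libraries (adjusted p = 0.34 in limma), and the X-linked miR-363-3p at 35.2 ± 1.2 and 44.34 ± 0.64 RPM (limma adjusted p = 0.26). edgeR's quasi-likelihood test on recovered reads called 2 further paralog arms higher, and they were these 2, beside 4.56% of all rows called higher by it. DESeq2 also called both higher (DESeq2 adjusted p = 0.013 and 0.014), beside 6.14% of all rows. So did limma without the 10 most abundant miRNAs (limma adjusted p = 0.034 and 0.027), beside 4.11%. Of 17 alternative fits, 4 called miR-32-5p and 3 called miR-363-3p. miR-20b-5p, from the X-linked cluster, stood at 7.22 ± 1.15 and 5.95 ± 0.98 RPM, and miR-92b-3p at 3.02 ± 0.60 and 2.34 ± 0.41 RPM.

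A share within a library does not depend on scaling between libraries, and it sets the cluster against its seed mates directly. miR-93-5p and miR-106b-5p together held 25.1%, 24.96% and 24.3% of the reads with their seed in wild type libraries 1 to 3. In knockout libraries 1 to 3 they held 30.1%, 31.9% and 31.6%. The knockout was higher in 3 of 3 libraries, by 6.39 percentage points (24.8 ± 0.4% and 31.2 ± 1.0%, SD, n = 3; p = 0.1 in an exact two-sided permutation test, which with 3 against 3 libraries cannot give less). miR-93-5p alone held 20.3% to 20.7% of this family in wild type libraries and 24.1% to 26.97% in knockout libraries. miR-106b-5p alone overlapped, at 3.62% to 4.66% and 4.62% to 5.92%. miR-20a-5p held 39.4% to 43.2% and 33.5% to 35.2%. The share of miR-17-5p overlapped, at 31.6% to 34.98% and 32.5% to 35.1%. The rare miR-20b-5p, which is outside the cluster, also held more in every knockout library, at 0.384% to 0.522% and 0.596% to 0.645%.

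miR-25-3p held 24.8%, 20.8% and 24.9% of the reads with its seed in wild type libraries and 31.9%, 29.2% and 29.6% in knockout libraries. The knockout was again higher in 3 of 3 libraries, by 6.74 percentage points (23.5 ± 2.3% and 30.2 ± 1.4%, SD, n = 3; p = 0.1 in the exact two-sided permutation test, again the smallest). Its ratio to miR-92a-3p was 0.341, 0.273 and 0.343 in wild type libraries and 0.507, 0.438 and 0.448 in knockout libraries. The whole family held 3977 ± 256 RPM in wild type libraries and 2862 ± 338 RPM in knockout libraries, so the larger share of miR-25-3p was a share of a smaller sum. Seed mates outside the cluster also held a larger share in every knockout library, miR-32-5p at 1.504% to 1.90% and 2.59% to 3.37%, and miR-363-3p at 0.813% to 0.987% and 1.38% to 1.79%. A larger share was thus not particular to the cluster. In the first family it stood beside a lower share of miR-20a-5p but not of miR-17-5p, both of miR-17-92. In the second it stood beside a lower share of miR-92a-3p (72.5% to 76.3% and 62.9% to 66.6%).

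The seed family of miR-93-5p likewise summed to 1549 ± 87 RPM in wild type libraries and to 953 ± 153 RPM in knockout libraries, and these family sums were not tested. Over the 9 values tested by permutation here, the adjusted p of both shares was 0.23, so neither passed. Endothelial markers (miR-126a, 2 of 2 detected) summed to 25222 to 26982 RPM in wild type libraries and 19147 to 21287 RPM in knockout libraries. Smooth muscle markers (miR-143-3p and miR-145-5p, 2 of 2 detected) summed to 9558 to 14270 RPM and 5576 to 7508 RPM. The 4 hepatocyte markers summed to 496544 to 536198 RPM and 553315 to 591742 RPM. Of these, only miR-122-5p was higher in every knockout library, at 326912 to 365528 RPM and 402452 to 463696 RPM. By contrast, miR-192-5p was lower in every knockout library, and miR-148a-3p and miR-122-3p overlapped between genotypes. The 4 erythroid markers summed to 467 to 580 RPM and 377 to 459 RPM, though miR-144-3p and miR-486 among them overlapped. None of the sums of these 4 lists overlapped between genotypes, nor did the germ cell sums above. Among the germ cell markers, miR-34c-5p had the most reads (382, 227 and 278 in wild type, 153, 216 and 188 in knockout libraries). In RPM, miR-34b-5p, miR-34b-3p, miR-202-5p and miR-547-3p of that list overlapped. For comparison, 21.6% of all 570 single rows had every knockout library below every wild type library. That is a share of single rows and not of sums of lists. The share of rows with every knockout library above every wild type library was not computed. The part of these lists in the result was not tested. The 4 leukocyte markers, at 757 to 871 RPM and 811 to 923 RPM, overlapped in sum, though miR-142-3p among them was higher in every knockout library.

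**Figure D3:**
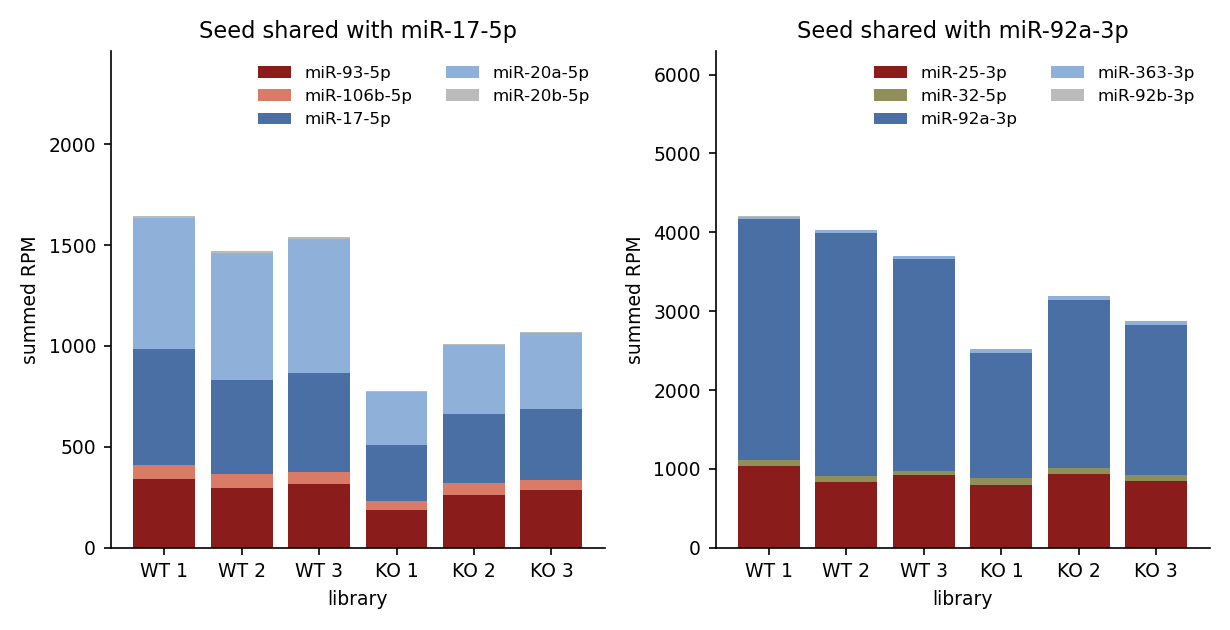
Summed RPM of the miRNAs that share a seed with miR-17-5p (left) and with miR-92a-3p (right), as stacked bars for each library. The segments of miR-93-5p and miR-25-3p shrink less between genotypes than those of miR-20a-5p and miR-92a-3p, and they make up a larger part of each knockout bar.

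The hairpins differed widely in arm use. miR-25 gave 365 to 604 reads of its 3p arm per read of its 5p arm, miR-93 gave 62.5 to 103 reads of its 5p arm per read of its 3p arm, and miR-106b gave 0.968 to 1.34 reads of its 3p arm per read of its 5p arm. miR-25 and miR-93 thus had a clear major arm, on opposite sides of their hairpins, and miR-106b had none.

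For 2 hairpins, every knockout library had a lower 5p over 3p ratio than every wild type library. The share of all listed hairpins for which this holds was not computed, so whether it is unusual is not known. The 3p over 5p ratio of miR-106b was 1.18, 0.968 and 1.11 in wild type libraries and 1.28, 1.29 and 1.34 in knockout libraries, and the genotypes did not overlap. The log2 ratio of 5p over 3p differed by -0.26 (p = 0.1 in the exact two-sided permutation test, its smallest value). Over summed reads, miR-106b-5p was 47.8% of its hairpin in the wild type (exact binomial 95% interval 46.3% to 49.4%) and 43.4% in knockout libraries (41.7% to 45.1%), intervals that cover counting error only.

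The 5p over 3p ratio of miR-93 was 103, 82.6 and 97.3 in wild type libraries and 62.5, 75.8 and 76.4 in knockout libraries, without overlap. On log2(RPM + 1) it differed by -0.40 (exact two-sided permutation p = 0.1). This rests on few reads of the 3p arm, 97 of 9234 reads of the hairpin in the wild type (1.05%, exact binomial 95% interval 0.853% to 1.28%) and 93 of 6829 in knockout libraries (1.36%, 1.10% to 1.67%), and the counting intervals overlap. The ratio of miR-25 overlapped between genotypes (exact p = 0.6). Over the 9 permutation tests, the adjusted p was 0.23 for miR-106b and miR-93 and 0.68 for miR-25, so no arm ratio passed.

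**Figure D4:**
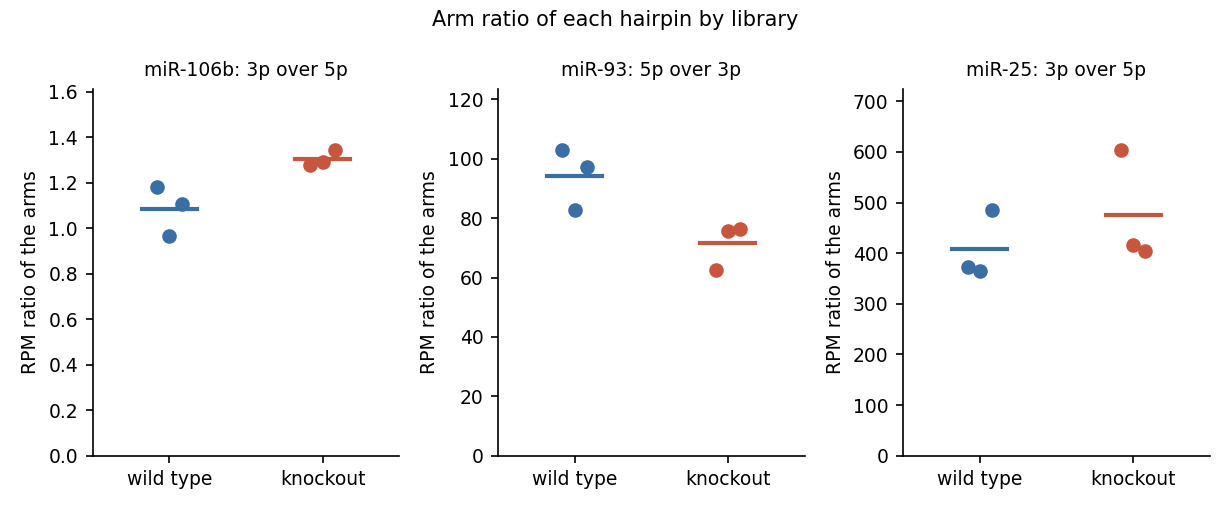
RPM ratio of the major to the minor arm of miR-93 and miR-25, and of the 3p to the 5p arm of miR-106b, with 1 point per library and a line at the mean. The genotypes do not overlap for miR-106b and miR-93 and overlap for miR-25.

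The make-up of the cluster itself did not separate the genotypes. miR-25 held 67.5%, 65.8% and 67.8% of the reads of the 6 arms in wild type libraries and 73.1%, 69.98% and 67.7% in knockout libraries. miR-93 held 22.1%, 23.6% and 23.6% and 17.4%, 19.95% and 23.2%, and miR-106b between 8.61% and 10.5% in every library. All 3 shares overlapped between genotypes (exact two-sided permutation p = 0.2, 0.2 and 0.8). Knockout library 1 was the farthest from the wild type for miR-25 and for miR-93.

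Profiles over the 6 libraries were compared with those of 214 other miRNAs of at least 10 RPM, by the root mean square difference of log2(RPM + 1) after centring each on its mean. The nearest to miR-93-5p were miR-30c-5p (0.05 log2 units), miR-15b-3p (0.06) and miR-103-3p (0.09), beside a median of 0.28 over all 214. Those nearest to miR-25-3p were let-7c-5p (0.05), let-7b-5p (0.06) and miR-29a-3p (0.07), beside a median of 0.24. For miR-106b-3p they were miR-652-3p (0.07), miR-30c-1-3p (0.09) and miR-598-3p (0.10), beside a median of 0.25. None of the 9 passed limma's test between genotypes. Within the cluster, miR-106b-3p and miR-25-3p lay closest, at 0.10, and miR-93-5p and miR-106b-3p farthest apart, at 0.23. These distances describe 6 libraries that share their totals, and carry no test.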

How the data were processed

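The authors deposited 1 table of RPM for 764 rat miRNA rows in 6 libraries, beside columns of mean RPM per genotype, a log2 fold change and a p-value of their own, per the file headers. Each library used 1 μg of RNA and was read as single-end 50 bp, per the labels' protocols. The submitters' processing notes name FastQC, BWA, edgeR and rn6 without saying what each was used for, and the test behind the deposited p-value was not given in the sources used here. Coordinates printed here are those of the RefSeq table on GRCr8, not of rn6. All 6 value columns matched a sample by name.

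limma 3.58.1 (trend option) compared genotypes on log2(RPM + 1) over the 570 rows with any read, without covariates and with Benjamini-Hochberg adjustment over all rows (threshold 0.05). Summed levels, shares and arm ratios were compared by exact two-sided permutation over libraries, 9 tests adjusted together. Whole reads were recovered from the steps of the RPM values, of which 97.8% to 98.9% lay within 0.0051 RPM of a whole read, against 8.5% to 10.2% by chance. The step of wild type library 1 is so close to 0.1 RPM that its total rests on its higher values. Recovered reads were used for arm shares and, as alternatives, in edgeR 4.0.16 (quasi-likelihood, 61 rows called beside limma's 36) and DESeq2 1.42.0 (72 rows). The fits were tested on simulated data. PCR copies were not removed. The exact binomial intervals treat every read as independent, so they cover counting error at most.

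The members and lists were chosen with earlier results of these data known. Named are all 6 arms, the called paralogs and seed mates, and the 3 nearest profiles of the most abundant arm of each hairpin. Alternatives were other scalings, pseudocounts, a filter on abundance, the count tests, the replicate number as a block and leaving out each library.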

Additional observations from a re-analysis of the deposited data

How the results depend on the processing

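The count of 0 cluster arms called held under all 17 alternatives, and miR-93-5p, miR-106b-5p and (in the 16 that kept it) miR-25-5p stayed below 0. miR-106b-3p turned to 0.14 with TMM, 0.15 with RLE, 0.13 with upper-quartile scaling, 0.11 without miR-122-5p, 0.17 without the 10 most abundant miRNAs, 0.13 in edgeR and 0.15 in DESeq2. In the same order miR-25-3p turned to 0.11, 0.13, 0.10, 0.0858, 0.145, 0.10 and 0.12. With 1 library left out, log2 changes ranged from -0.18 to 0.062 for miR-106b-3p, from -0.0514 to 0.0753 for miR-93-3p, from -0.19 to -0.0297 for miR-25-3p, from -0.30 to -0.0605 for miR-25-5p, from -0.51 to -0.21 for miR-93-5p and from -0.46 to -0.26 for miR-106b-5p. The log2 difference of the summed cluster became 0.0458 with TMM and 0.0189 without miR-122-5p, and ranged from -0.24 to -0.0989 with 1 library left out. The log2 arm ratio of miR-25 became 0.0215 with a pseudocount of 5 and ranged from -0.19 to 0.00068 with 1 library left out. The share of miR-106b in the cluster differed by -0.24 percentage points, by 0.31 over the most abundant arms, and by -0.85 to 0.11 with 1 library left out. The cause of these reversals was not tested. Paralog calls numbered 5 without the 10 most abundant miRNAs, in edgeR and in DESeq2, against 3. The 2 further calls were miR-32-5p and miR-363-3p, both higher in the knockout. With 1 library left out, paralog calls numbered 1 to 2. Leaving out 1 library kept the seed family shares at 6.04 to 6.95 and 5.40 to 7.44 percentage points. Without miR-20a-5p, an alternative chosen after seeing the data, miR-93-5p and miR-106b-5p held 42.7 ± 1.1% and 47.5 ± 1.6% of their family (exact permutation p = 0.1).

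Whether same-numbered libraries pair was not settled, since 3 libraries per genotype are too few for these correlations to decide it. Deviations of same-numbered libraries from the group means correlated at 0.03, 0.18 and 0.20, and those of differently numbered libraries at -0.29 to 0.06. Wild type library 1 correlated better with knockout library 2 (0.06) than with its own number. With the replicate number as a block, 0 cluster arms and 2 paralog arms were called, 22 rows in all against 36. The difference of the summed cluster kept its -0.18 in the block (exact sign-flip p = 0.5), and the shares their 6.39 and 6.74 points (p = 0.25, the smallest possible).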

Other observations

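In the authors' deposited table, the log2 fold changes of the knockout over the wild type were -0.37 for miR-93-5p, -0.36 for miR-106b-5p, -0.09 for miR-106b-3p, -0.11 for miR-25-3p, 0.01 for miR-93-3p and -0.30 for miR-25-5p. The authors' deposited table gives p-values between 0.364 and 0.853 for these 6 arms.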
